A study of Mus musculus with 8 samples.

Results

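The transforming growth factor β (TGF-β) and bone morphogenetic protein (BMP) pathway was described here in tumor endothelial cells through 10 genes, Tgfb1, Eng, Acvrl1, Bmpr2, Tgfbr1, Tgfbr2, Smad6, Smad7, Id1 and Id3. They were taken by gene symbol, as a list chosen with earlier results of these data known, and all 10 were among the 20057 genes listed. The question was how these genes were expressed in tumor endothelium after immunotherapy with an agonistic CD40 antibody. B16-F10 melanoma cells, an established mouse tumor line, were implanted under the skin of 8 week old male C57BL/6 mice (250000 cells per mouse), and 30 µg of antibody was injected beside the tumor on days 13 and 16. The treated group (n = 4 mice) received agonistic CD40 mAb (FGK4.5), and the control group (n = 4 mice) received rat IgG2a isotype control (2A3). According to the labels the mice were sacrificed 1 day after the last injection, while the study's supplementary methods also name a later day for sorted cells, and about 100000 live CD45-CD31+ cells per tumor were sorted, CD45 being carried by leukocytes and CD31 by endothelium. Each library came from 10 ng of RNA of 1 mouse and is called by the name of that mouse, which gave 5N, 6L, 6R and 10N for agonistic CD40 mAb and 5L, 7N, 8N and 9L for isotype control. The labels name no transgene, and the implanted tumor is a single transplanted line.

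TGF-β and BMP ligands bind a type II receptor (TGFBR2 or BMPR2), which phosphorylates a type I receptor (TGFBR1, also called ALK5, or ACVRL1, also called ALK1). The type I receptor then phosphorylates SMAD proteins, which move to the nucleus and switch target genes such as Id1 and Id3 on, while the inhibitory SMADs, SMAD6 and SMAD7, are induced by the same signal and dampen it. In endothelium, BMP9 and BMP10 signal through ACVRL1 with the coreceptor endoglin (Eng), and loss of either gene causes malformed vessels in hereditary hemorrhagic telangiectasia, while loss of BMPR2 is a cause of pulmonary arterial hypertension.

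Values are normalized reads, which are reads per gene divided by a size factor of the library. The reads recovered from them on genes ranged from 12512772 to 64938728 in the agonistic CD40 mAb libraries and from 2971689 (5L) to 35583141 in the isotype control libraries. The 10 endothelial markers were summed in each library and came to 39820 to 58174 normalized reads in treated tumors and 34778 to 48929 in controls. Pecam1, which encodes the sorted antigen CD31 (7671 to 12526), and Cdh5, the endothelial cadherin (9535 to 14039), were abundant in every library. The 6 fibroblast markers summed to 120637 to 249098 in treated tumors and 88497 to 216733 in controls, above the endothelial sum in each library. The collagens Col1a1, Col1a2 and Col3a1 made up most of the fibroblast sum (42041, 54055 and 102260 in 5N, against 895 to 5099 for the other markers). Sums over different lists, not divided by gene length, do not compare amounts of cell types. The 7 melanoma markers summed to 35745 to 60850 in treated tumors and 38674 to 93734 in controls, and 5L held both the highest melanoma and the lowest fibroblast sum. Sums were 12809 to 25672 and 11168 to 31792 for 7 mural cell markers and 266 to 442 and 177 to 395 for 7 macrophage markers, treated tumors first. Of the 6 leukocyte markers (1452 to 1587 and 1183 to 1658), the defining gene Ptprc was at 0 in 5L and at most at 21.1 elsewhere. The leukocyte sum was mostly that of Lcp1 (1083 in 5L to 1473 in 5N), and no other marker of the list was above 83.9 (Laptm5 in 9L). The 7 T and NK cell markers summed to 3.39 to 10.2 in treated tumors and 0 to 3.25 in controls, and each of the 7 was at 0 in at least 1 library. Depth limits this difference, since 1 read was worth 2.44 normalized reads in 5L and 2.38 in 7N, against 0.118 in 5N. Cd4 made up most of the sums of 7N, 8N and 9L (2.38, 2.72 and 3.03) and was at most at 1.16 in treated tumors. In sorted bulk RNA, fewer cells of a type and less RNA per cell cannot be told apart, and the part of these cell types in the results that follow was not tested.

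**Figure D1:**
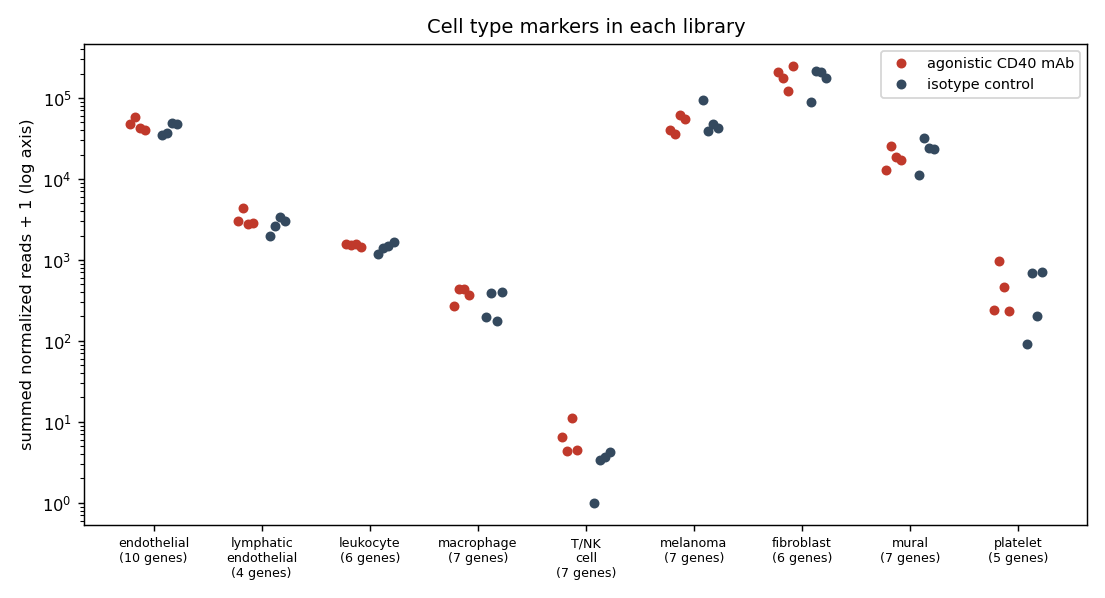
Summed normalized reads (plus 1, logarithmic axis) of each cell type marker list in each of the 8 libraries, red for agonistic CD40 mAb and dark blue for isotype control, with the number of genes per list. Endothelial, melanoma and fibroblast markers were abundant in every library, and T and NK cell markers were near 0, where the sum was 3.39 to 10.2 in treated tumors and at most 3.25 in controls. In the control 5L 1 read was worth 2.44 normalized reads, so that this gap is of the size of a few reads.

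Between the groups, 1 of the 10 genes passed the threshold of the study, group means that differ at least 1.5 times and an unadjusted p up to 0.05. This was Smad6, which was higher with agonistic CD40 mAb, and no gene of the 10 passed in the lower direction. Over all 12969 genes tested, 1.28% passed as higher and 0.239% as lower. With Benjamini-Hochberg adjustment over all genes tested in limma, none of the 10 had an adjusted p under 0.05, against 0.0154% of all genes, while 1 of them (Smad6) had an unadjusted p under 0.05, against 2.01% of all genes, and edgeR and DESeq2 on the recovered reads likewise gave an adjusted p of 1.00 and 0.999 for Smad6. None of the 10 had groups without overlap, against 1.09% of all genes for higher and 0.486% for lower. All 10 genes had a log2 fold change above 0, against 51.3% of all genes tested, with a median of 0.24 against 0.00457 for all genes. With 1 library left out the count above 0 fell to 7 without 6L, 7 without 5L and 8 without 5N and was 9 or 10 otherwise, and the median was between 0.14 (without 6L) and 0.34 (without 9L). Genes of 1 pathway and of 1 cell type are not independent of each other, and no test was made over the 10.

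The summed endothelial markers moved in the same direction, with 9 of the 10 marker genes higher in mean with agonistic CD40 mAb. All 6 fibroblast and all 4 lymphatic endothelial markers were also higher in mean, and all 7 melanoma and all 7 mural cell markers lower, with overlapping sums. Higher in mean were also 4 of 6 leukocyte, 3 of 7 macrophage, 5 of 7 T and NK cell and 4 of 5 platelet markers. Platelet sums were 235 to 955 in treated tumors and 90.4 to 711 in controls. Only the T and NK cell sums did not overlap, at very few reads. Single libraries set some of these directions, since without 5L 7 of 7 melanoma markers were higher and 5 of 6 fibroblast markers lower in mean, and without 6L 4 of the 10 endothelial markers were higher. The part of these shifts in the values of the 10 genes was not tested. When each library was scaled to that sum, the median of all genes tested moved to -0.16 and the median of the 10 genes to 0.08, and 6 of the 10 were above 0. With library quality weights 7 of the 10 were above 0. Within the groups part of the 10 genes also had low and high libraries in common. Library 5N was the lowest of its group for 5 of the genes (Tgfb1, Acvrl1, Smad6, Id1 and Id3) and 6L the highest for 6 of the 10, while among the controls 5L was the lowest for 6 genes and 9L the highest for 5. Other genes differed, with 5N the highest for Tgfbr1 and Tgfbr2 and both 6L and 9L the lowest for Tgfbr1. Library 7N was the lowest for 3 genes and the highest for 3.

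**Figure D2:**
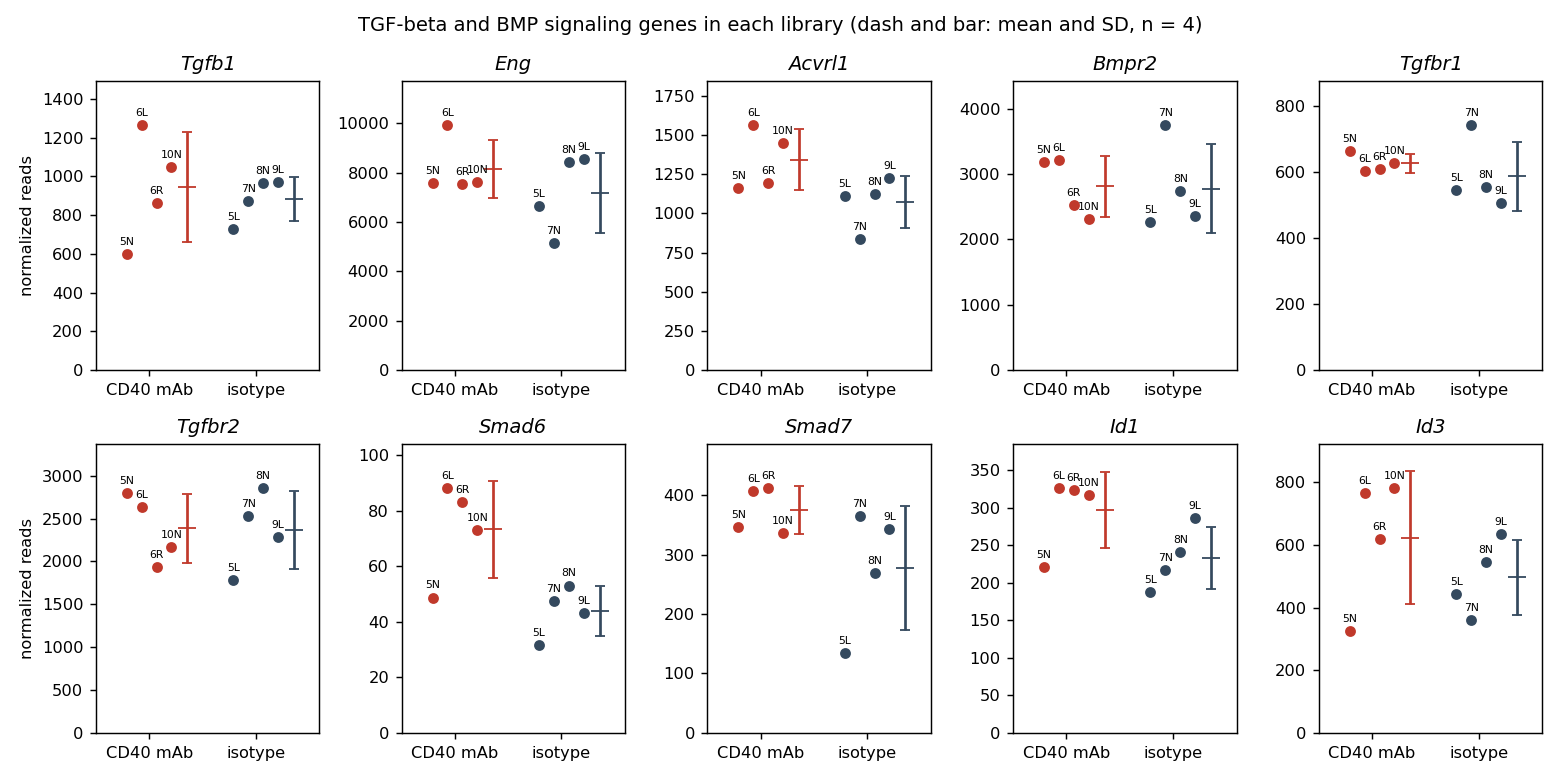
Normalized reads of the 10 genes in each library, on linear axes that start at 0, red for agonistic CD40 mAb and dark blue for isotype control, with the mouse beside each point and the mean and SD (n = 4) at the right of each group. The groups overlapped for every gene, and for Smad6 and Id1 3 of the 4 agonistic CD40 mAb libraries were above all 4 controls.

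Levels were compared between genes after division by the summed exon length, as normalized reads per kb. In isotype control treated tumors Eng stood at 1775 ± 400 per kb (SD, n = 4), above every other gene of the 10 in every library. Tgfbr2 (289 ± 55.3), Id3 (277 ± 67.1), Acvrl1 (252 ± 38.6), Id1 (201 ± 35.9), Tgfb1 (175 ± 22.6) and Bmpr2 (155 ± 37.8) followed, and each of these overlapped its neighbor in the order. The ranges of Bmpr2 and Tgfbr1 (89.9 ± 16.1) were apart, those of Tgfbr1 and Smad7 (61.3 ± 22.9) overlapped, and Smad6 was lowest at 13.7 ± 2.82, apart from Smad7. With agonistic CD40 mAb the order was alike at both ends, from Eng at 2015 ± 290 per kb to Smad6 at 22.9 ± 5.47, with Id3 (348 ± 118) and Acvrl1 (315 ± 45.4) above Tgfbr2 (291 ± 49.0) but within overlapping ranges. The coreceptor was thus the most abundant transcript of the 10 in both groups and the inhibitory Smad6 the rarest.

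The ligand Tgfb1 (chr7:25687002-25705077, plus strand) encodes TGF-β1, which is secreted in a latent form. Its level with agonistic CD40 mAb was 600 normalized reads in 5N, 1264 in 6L, 863 in 6R and 1050 in 10N, against 726 in 5L, 873 in 7N, 964 in 8N and 970 in 9L with isotype control. The treated libraries held both the lowest and the highest value of the 8. The log2 fold change was 0.05 (SE 0.21, limma adjusted p = 1.00) with a 95% interval from -0.41 to 0.51, and an exact permutation test gave p = 0.886. Its direction depended on single libraries, since it was -0.10 without 6L and 0.25 without 5N.

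Among the receptors, Acvrl1 (chr15:101128522-101145336, plus strand), the endothelial type I receptor for BMP9 and BMP10, had the smallest p. It stood at 1165 normalized reads in 5N, 1563 in 6L, 1197 in 6R and 1448 in 10N, against 1109 in 5L, 840 in 7N, 1126 in 8N and 1223 in 9L. Library 7N was far below the rest, and 6L and 10N lay above all controls, while 5N and 6R lay within their range. The ratio of group means was 1.25, the log2 fold change 0.32 (SE 0.15) with a 95% interval from -0.00464 to 0.65, unadjusted p = 0.0528 in limma and adjusted p = 1.00. The exact permutation test, which cannot fall under 0.0286 with the 70 assignments of 8 libraries, gave p = 0.0857. The log2 fold change was 0.21 without 7N and 0.39 without 9L, and 0.16 when scaled to the endothelial markers.

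Eng (chr2:32646595-32682669, plus strand), the coreceptor that presents ligand to ACVRL1, was at 7569 normalized reads in 5N, 9916 in 6L, 7546 in 6R and 7596 in 10N, against 6630 in 5L, 5141 in 7N, 8430 in 8N and 8536 in 9L. A single treated library, 6L, stood above all others, and the other 3 lay between the lower and the upper pair of controls. The log2 fold change was 0.20 (SE 0.18, 95% interval from -0.20 to 0.61, limma adjusted p = 1.00, exact permutation p = 0.314), and with library quality weights it was -0.022. It was 0.052 without 7N, 0.11 without 6L and 0.30 without 9L. The library preparation did not mark strand, and 61 exon bases of Eng lie opposite Fpgs and 127 of Acvrl1 opposite Gm16031, so that reads from there cannot be assigned to 1 gene.

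The type II receptors differed between the groups by less than their spread. Bmpr2 (chr1:59763400-59879014, plus strand), the BMP type II receptor, ranged from 2316 to 3222 normalized reads in treated tumors and from 2261 to 3749 in controls, with a log2 fold change of 0.03 (95% interval from -0.36 to 0.43). Tgfbr2 (chr9:116084293-116175360, minus strand), which binds TGF-β itself, ranged from 1935 to 2803 in treated tumors and from 1784 to 2859 in controls, with a log2 fold change of 0.02 (95% interval from -0.36 to 0.39). For both genes the treated values lay inside the range of the controls, and a change of the size seen for Acvrl1 (0.32) in either direction was within both intervals. The log2 fold change of Bmpr2 ranged from -0.06 without 5L to 0.18 without 7N, and that of Tgfbr2 from -0.11 without 5L to 0.12 without 8N. Tgfbr1 (chr4:47353222-47414931, plus strand), the type I receptor for TGF-β, was at 665 normalized reads in 5N, 603 in 6L, 608 in 6R and 629 in 10N and varied least of the 10 among treated tumors, with a coefficient of variation of 4.48%. In the controls it was at 545 in 5L, 742 in 7N, 555 in 8N and 508 in 9L, and the log2 fold change was 0.11 (SE 0.13, limma adjusted p = 1.00, exact permutation p = 0.429), with 0.042 without 9L and 0.22 without 7N.

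Smad6 (chr9:63953076-64022059, minus strand) encodes an inhibitory SMAD that acts mainly on BMP type I receptors. Its level was 48.8 normalized reads in 5N, 88.3 in 6L, 83.0 in 6R and 73.2 in 10N, against 31.8 in 5L, 47.6 in 7N, 53.1 in 8N and 43.1 in 9L. Of the treated libraries, 6L, 6R and 10N were above all controls, and 5N was below 8N, so that the groups overlapped. The means were 73.3 ± 17.5 and 43.9 ± 9.05 (SD, n = 4 each), a ratio of 1.67, with a log2 fold change of 0.72 (SE 0.26, 95% interval from 0.14 to 1.29), unadjusted p = 0.0193 and adjusted p = 1.00 in limma. By unadjusted p it was gene 135 of the 12969, and the exact permutation test gave p = 0.0571.

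Smad6 was weakly expressed and depth limited its measurement in the controls. It was counted by 414 reads in 5N, 234 in 6L, 138 in 6R and 126 in 10N, and by 13 in 5L, 20 in 7N, 39 in 8N and 199 in 9L. The 13 reads of 5L gave an exact Poisson 95% interval from 16.9 to 54.3 normalized reads, which reaches past the level in 5N, whereas 9L, with 199 reads, had an interval from 37.3 to 49.5, below those of 6L, 6R and 10N. These intervals cover counting error only, since reads without molecular identifiers are not independent molecules. With the reads of every library drawn down at random to the total of 5L, the ratio was 1.82 and the unadjusted p = 0.0496 in limma (adjusted p = 1.00). This was a single draw, and with a p this close to the limit another draw could fall on either side. The call was lost without 6L (log2 fold change 0.62, limma unadjusted p = 0.0608), without 6R (0.65, unadjusted p = 0.0575) and with scaling to the endothelial markers (0.56, unadjusted p = 0.0823). Leaving out any other library kept it, with log2 fold changes from 0.57 without 5L to 0.90 without 5N. Smad6 is also among the genes that the study lists as changed in these libraries, which is the same evidence and not a second source.

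The promoter of Smad6 is shown because it is the gene that passed the threshold and because the palindrome GTCTAGAC, the letters first selected as a SMAD-binding sequence, lies across its start site, at bases -4 to 4 of the RefSeq start. The sequence is that of RefSeq on GRCm38.p6, chr9:64022010-64022309, minus strand, from 250 bases before to 50 bases after the start, in the direction of transcription, and the capitals mark the palindrome.
Smad6: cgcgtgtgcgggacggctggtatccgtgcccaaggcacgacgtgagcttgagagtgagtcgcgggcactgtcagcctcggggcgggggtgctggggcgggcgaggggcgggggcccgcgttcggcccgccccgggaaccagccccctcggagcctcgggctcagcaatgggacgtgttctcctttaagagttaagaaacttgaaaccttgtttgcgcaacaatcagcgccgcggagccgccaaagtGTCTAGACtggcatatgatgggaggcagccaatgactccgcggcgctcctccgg

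The palindrome, which reads alike on both strands, was found in 0.213% of the 32851 promoters of this length and in no other of the 7 genes of the 10 that the promoter table holds (Tgfb1, Eng, Bmpr2, Tgfbr1, Tgfbr2, Smad6 and Id3). The shorter SMAD box, CAGAC or its reverse complement GTCTG, was present in 49.6% of all promoters and at 2 or more places in 16.2%. It was found at 2 places in the promoters of Eng and Id3 and at 1 place in that of Tgfbr2 and in 1 of the 2 promoters of Tgfbr1, and it was not in that of Smad6. The GC-rich element GGCGCC, present in 11.9% of all promoters, was found in Bmpr2 and in the other promoter of Tgfbr1. The STAT element TTCNNNGAA (8.3% of all promoters) and the core of the interferon-stimulated response element (3.44%) were in none of these promoters. The Smad6 promoter had a GC content of 66.3% against a median of 52.7% over all promoters. A match describes letters and was not tested for binding.

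Smad7 (chr18:75367529-75395935, plus strand) encodes the inhibitory SMAD that acts on both TGF-β and BMP receptors. It was at 346 normalized reads in 5N, 407 in 6L, 412 in 6R and 336 in 10N, against 134 in 5L, 364 in 7N, 268 in 8N and 343 in 9L. The treated libraries lay close together, 6L and 6R were above all controls, and 5L was less than any other library by a wide margin. The ratio was 1.35 and the log2 fold change 0.53 (SE 0.27, 95% interval from -0.08 to 1.13), with unadjusted p = 0.0822 and adjusted p = 1.00 in limma and an exact permutation p = 0.143. Without 5L, the library with the highest melanoma and lowest fibroblast marker sums, the log2 fold change was 0.21, and without 7N it was 0.69 and passed the threshold (limma unadjusted p = 0.0328, adjusted p = 1.00).

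The target genes Id1 (chr2:152736251-152737410, plus strand) and Id3 (chr4:136143497-136145755, plus strand) encode inhibitors of DNA binding, which block basic helix-loop-helix transcription factors and are direct targets of BMP signaling in endothelium. Id1 was at 221 normalized reads in 5N, 327 in 6L, 324 in 6R and 317 in 10N, against 188 in 5L, 216 in 7N, 241 in 8N and 286 in 9L. The treated libraries 6L, 6R and 10N were nearly equal and above all controls, and 5N lay among the controls. The ratio was 1.27 and the log2 fold change 0.35 (SE 0.18, 95% interval from -0.05 to 0.74), with unadjusted p = 0.0794 and adjusted p = 1.00 in limma and an exact permutation p = 0.0857. Without 5N the log2 fold change was 0.48 (limma unadjusted p = 0.0168, ratio 1.38), which stayed under the ratio of 1.5.

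Id3 was at 324 normalized reads in 5N, 764 in 6L, 620 in 6R and 782 in 10N, against 445 in 5L, 359 in 7N, 546 in 8N and 636 in 9L. The lowest of the 8 values was in a treated tumor and so were the 2 highest, and the coefficient of variation among treated tumors, 34.0%, was the largest of the 10 genes. The log2 fold change was 0.28 (SE 0.28, 95% interval from -0.33 to 0.89, limma adjusted p = 1.00, exact permutation p = 0.429), and it ranged from 0.13 without 7N to 0.56 without 5N.

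**Figure D3:**
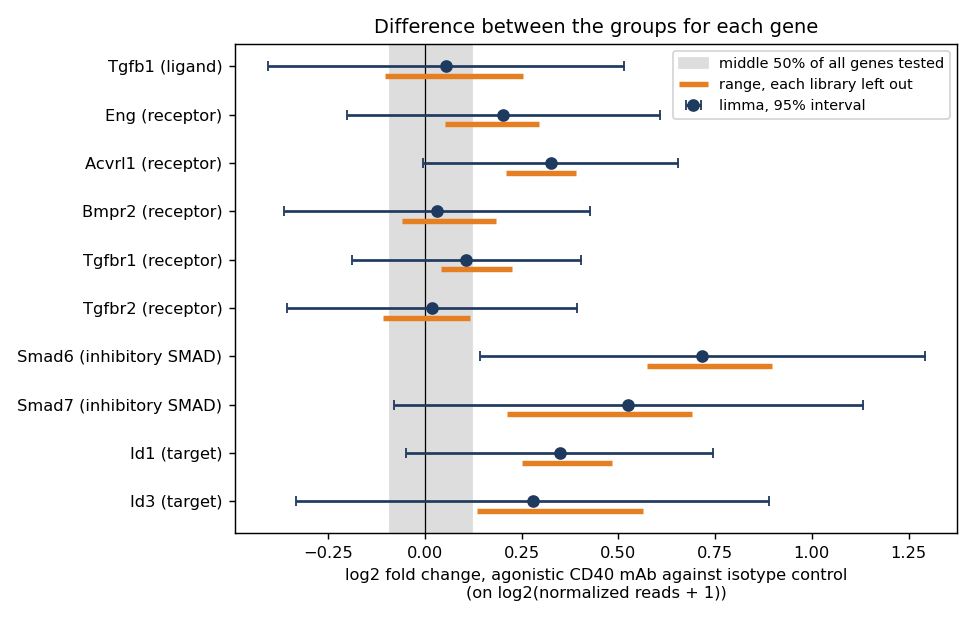
Log2 fold change, agonistic CD40 mAb against isotype control, of the 10 genes with the 95% interval of limma (dark blue), the range when each library in turn was left out (orange) and the middle 50% of all 12969 genes tested (gray, from -0.09 to 0.12). The interval of Smad6, from 0.14 to 1.29, was the only one of the 10 that did not include 0.

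Ratios between genes of the pathway were taken within each library, of normalized reads plus 1. The inhibitor to target ratio Smad6/Id1, as log2, was -2.16 in 5N, -1.88 in 6L, -1.95 in 6R and -2.10 in 10N, against -2.53 in 5L, -2.16 in 7N, -2.16 in 8N and -2.70 in 9L. All 4 treated values were above all 4 controls, with 5N (-2.157) next to 8N (-2.161) and means of -2.02 ± 0.13 and -2.39 ± 0.27 (SD, n = 4 each) that differed by 0.37. The separation from 8N and 7N was small beside their counting error, since Smad6 rested on 39 reads in 8N (exact Poisson 95% interval from 37.8 to 72.6 normalized reads) and on 20 in 7N (from 29.1 to 73.5). The 6 other ratios overlapped between the groups. The receptor ratio Acvrl1/Tgfbr1 was 1.09 ± 0.25 in treated tumors and 0.87 ± 0.48 in controls, where 7N, at 0.18, had the lowest value. Eng/Acvrl1 was 2.60 ± 0.14 and 2.72 ± 0.15, Tgfbr2/Tgfbr1 was 1.91 ± 0.22 and 2.00 ± 0.32, and Bmpr2/Acvrl1 was 1.06 ± 0.31 and 1.35 ± 0.55, with 2.16 in 7N. Smad6/Smad7 was -2.37 ± 0.29 and -2.56 ± 0.45, and Id1/Id3 was -1.002 ± 0.34 and -1.07 ± 0.23. For any single ratio, a share of 0.0286 of the 70 assignments of the libraries separates the groups fully, and 7 ratios were looked at. These ratios are given as a description, without a test.

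**Figure D4:**
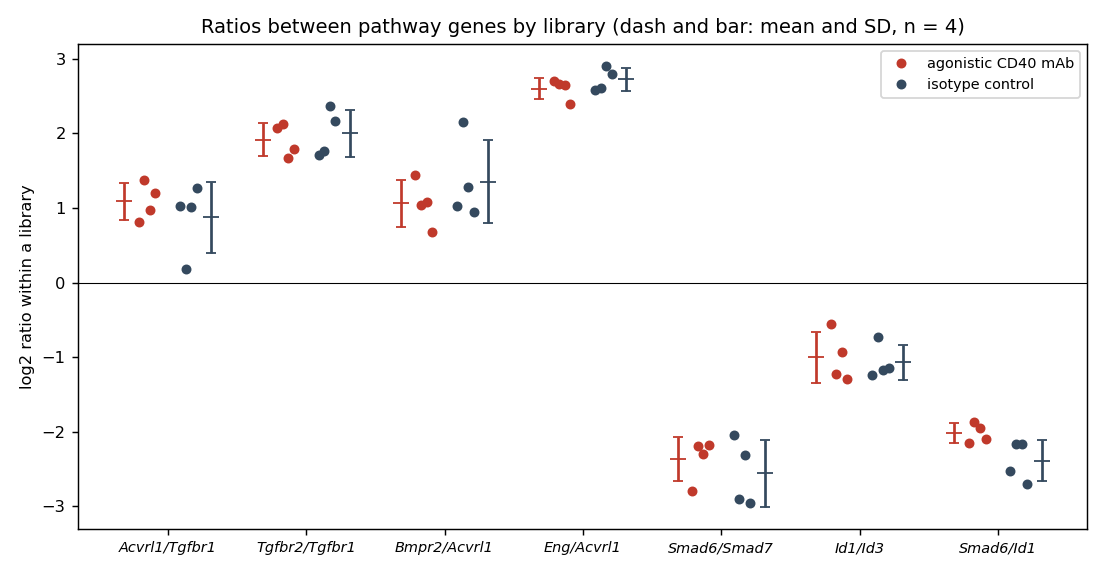
Log2 ratios of normalized reads (each plus 1) between pairs of the 10 genes within each library, red for agonistic CD40 mAb and dark blue for isotype control, with the mean and SD (n = 4) beside the points. Smad6/Id1 was the only one of the 7 ratios without overlap between the groups, with means of -2.02 and -2.39, and the treated 5N (-2.157) was next to the control 8N (-2.161).

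The genes whose pattern over the 8 libraries was most like that of each gene were ranked by the SD of the difference of log2 values, over all genes tested. For Smad6 these were Tapbp (SD 0.15), Dtx3l (0.16) and Zfp874b (0.17), where the SD of Smad6 itself was 0.50, and among the 10 genes Id1 came closest (0.28, rank 37). For Smad7 they were Hoxa9 (0.11), Smagp (0.15) and Nfkbiz (0.15), with an SD of Smad7 itself of 0.52, and its nearest gene among the 10, Smad6, was at rank 765. Acvrl1 was most like Tbkbp1 (0.07), Pdgfb (0.08) and Rab24 (0.08), and Eng most like Prex1 (0.06), Epha2 (0.08) and Arrb1 (0.08). Eng and Acvrl1 were nearest to each other among the 10 (SD 0.15, rank 123 for Eng and rank 76 for Acvrl1). For Id1 the list was Phf1 (0.08), Phkg2 (0.10) and Psme1 (0.11), and for Id3 it was Osbpl7 (0.15), Smox (0.15) and Snx21 (0.15). Bmpr2 was most like Xiap (0.06), Mid2 (0.07) and Atl3 (0.07), Tgfbr1 most like Srpk2 (0.05), Mtmr1 (0.06) and Lamp2 (0.07), Tgfbr2 most like Pcdhga10 (0.10), Stx17 (0.10) and Lhfpl2 (0.10), and Tgfb1 most like Plk3 (0.11) and Pear1 (0.11). These are ranks over 8 shared libraries, and likeness was not tested.

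The wider pathway was described by 123 further gene symbols in 9 lists, of which 120 were in the file and 109 were tested. Ccn2 and Ccn1 are newer symbols of Ctgf and Cyr61, under which both genes were tested. Of these, 2 passed the threshold as higher (1.28% of all genes did) and 0 as lower (0.239% of all genes), while 59 were above 0 and 50 below, with a median log2 fold change of 0.02. This balance rested on single libraries, with 34 of 109 above 0 without 5L, 46 of 109 without 6L and 85 of 110 without 7N. The median log2 fold change of all genes tested was -0.00948, -0.00393 and 0.00809 in these fits. The 2 genes were Tgm2 and Ltbp1. By unadjusted p alone the same count of 2 was under 0.05 in limma, where 2.01% of all genes were, and edgeR added Ankrd1 as lower. The median of the wider lists was near that of all genes, whereas that of the 10 genes was 0.24. For the 10 genes it was 0.14 without 6L, and with endothelial scaling 0.08, against -0.16 for all genes.

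Tgm2, transglutaminase 2, an enzyme that cross-links matrix proteins and is known as a TGF-β target, was at 1524 normalized reads in 5N, 2245 in 6L, 1818 in 6R and 1783 in 10N, against 836 in 5L, 1092 in 7N, 1360 in 8N and 1296 in 9L. All 4 treated libraries were above all 4 controls. The ratio was 1.61 and the log2 fold change 0.70 (SE 0.17), with unadjusted p = 0.00209, adjusted p = 0.485 in limma and an exact permutation p = 0.0286, the smallest the design can give. The adjusted p was between 0.0275 with DESeq2 and 1.00 over the alternatives. Without 6L, without 5L and with scaling to the endothelial markers the ratios were 1.49, 1.47 and 1.46, under 1.5, and the last had a log2 fold change of 0.53. Of the 50-base windows of Tgm2 transcripts 18.7% also occur in Gm20412 or other genes, and 1003 exon bases lie opposite Gm20412 and Rprd1b, so that its reads could be split without strand.

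Ltbp1, a latent TGF-β binding protein that tethers the ligand to matrix, was at 245 normalized reads in 5N, 233 in 6L, 157 in 6R and 132 in 10N, against 68.4 in 5L, 121 in 7N, 146 in 8N and 149 in 9L. 10N was below 2 of the controls, so that the groups overlapped. The ratio was 1.59 and the log2 fold change 0.68 (SE 0.29, unadjusted p = 0.0375, adjusted p = 1.00 in limma, exact permutation p = 0.114). The call was lost without 5N (log2 fold change 0.54, limma unadjusted p = 0.108), 6L (0.57, unadjusted p = 0.101), 5L (0.43, unadjusted p = 0.0885) or 7N (0.70, unadjusted p = 0.0544). It was also lost without the variance trend (limma unadjusted p = 0.0514), with quality weights (log2 fold change 0.31, unadjusted p = 0.155), with reads drawn down to 5L (0.53, unadjusted p = 0.109) and with scaling to the endothelial markers (0.52, unadjusted p = 0.0542).

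Of the 16 ligands, 12 were tested and none passed, with 8 above 0 and a median of 0.07. Gdf2 and Bmp10, which encode the ACVRL1 ligands BMP9 and BMP10, had 0 reads in all 8 libraries, which allows a level of up to 0.353 normalized reads in 5N and up to 7.33 in 5L (3 reads per library). Inhbb, a subunit of activin B, was at 1925 and 1842 normalized reads in mean, and Bmp1, a protease that processes matrix proteins despite its name, at 2457 and 2229. Bmp6 (124 ± 27.6 and 99.9 ± 34.5) and Bmp2 (114 ± 54.3 and 85.8 ± 60.1) had overlapping groups. Of the 9 tested genes of latency and activation, Thbs1, which can activate latent TGF-β, was most abundant, at 15470 ± 837 in treated tumors and 19901 ± 10514 in controls, where 7N held 33992.

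Of the 12 other receptors and coreceptors tested, none passed, with 7 above 0 and a median of 0.08. Bambi, a pseudoreceptor that blocks signaling, was at 457 ± 39.0 normalized reads in treated tumors and at 380 ± 126 in controls (log2 fold change 0.32, exact permutation p = 0.371), and Tgfbr3, the coreceptor betaglycan, at 709 ± 168 and 637 ± 214. Cd109, a coreceptor that limits TGF-β signaling, had a ratio of 0.889 (exact permutation p = 0.0571). Among the 13 antagonists outside the cell, 7 were above 0 and none passed, and Mgp, matrix Gla protein, which binds BMPs, was at 803 ± 265 and 1184 ± 524. The 5 receptor and co-SMADs tested had ratios close to 1, with Smad1 at 1.04, Smad5 at 0.962, Smad2 at 0.912, Smad3 at 1.13 and Smad4 at 0.971, and none passed. The 16 regulators inside the cell, such as the ubiquitin ligases Smurf1 and Smurf2, lay between -0.15 and 0.09 in log2 fold change, with 7 above 0.

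Of the 17 BMP target genes tested beside Id1 and Id3, 14 were above 0 (51.3% of all genes were) with a median of 0.12, and none passed the threshold. The lowest unadjusted p were those of Gja5, the arterial connexin 40, at 291 ± 22.1 and 225 ± 74.1 normalized reads (ratio 1.30, limma unadjusted p = 0.0671, exact permutation p = 0.143), and of Atoh8, a transcription factor downstream of ACVRL1, at 50.3 ± 11.1 and 33.7 ± 15.6 (ratio 1.49, limma unadjusted p = 0.0939, exact permutation p = 0.143). Gja5 and Msx1 passed without 8N and Atoh8 without 9L. In Atoh8 the controls 5L (17.1) and 7N (23.8) were below all treated libraries, while 8N (44.9) and 9L (49.0) lay among them. By size, Hey2 (ratio 0.666, limma unadjusted p = 0.353) was past the limit and Msx1 had the largest log2 fold change of the list (1.11, ratio 1.42, unadjusted p = 0.154). Hey1, a NOTCH and BMP target, had a ratio of 1.34 (limma unadjusted p = 0.14).

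Of the 16 TGF-β target genes tested, 7 were above 0, with a median of -0.03, and Tgm2 was the only one that passed. Junb passed as higher without 5N. Ctgf, connective tissue growth factor, was at 4513 and 6643 normalized reads in mean (limma unadjusted p = 0.415). Ankrd1 was at 36.4 ± 17.9 and 90.3 ± 55.1, a ratio of 0.403 with an exact permutation p of 0.257, where 5L (14.7) was among the lowest and 7N held 143. Of the 12 genes of endothelial to mesenchymal transition, 4 were above 0, with a median of -0.06, and none passed. Snai1, Snai2 and Fn1 stand in both of these lists. The smooth muscle genes Acta2 (4306 and 5928 in mean) and Tagln (1551 and 2122) are also expressed by mural cells, whose markers were all 7 lower in mean with agonistic CD40 mAb.

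The count of lower genes in the wider lists rested on 5L. Without it, 7 genes (Acta2, Ankrd1, Ctgf, Hey2, Mgp, Tagln and Thbs1) passed as lower and none as higher, while over all 13017 genes then tested 161 passed as higher (1.24%) and 123 as lower (0.945%), against 166 and 31 with all libraries. Library 5L had the fewest reads, the lowest sums of mural and fibroblast markers and the highest melanoma sum, and the part of each in this difference was not tested.

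**Figure D5:**
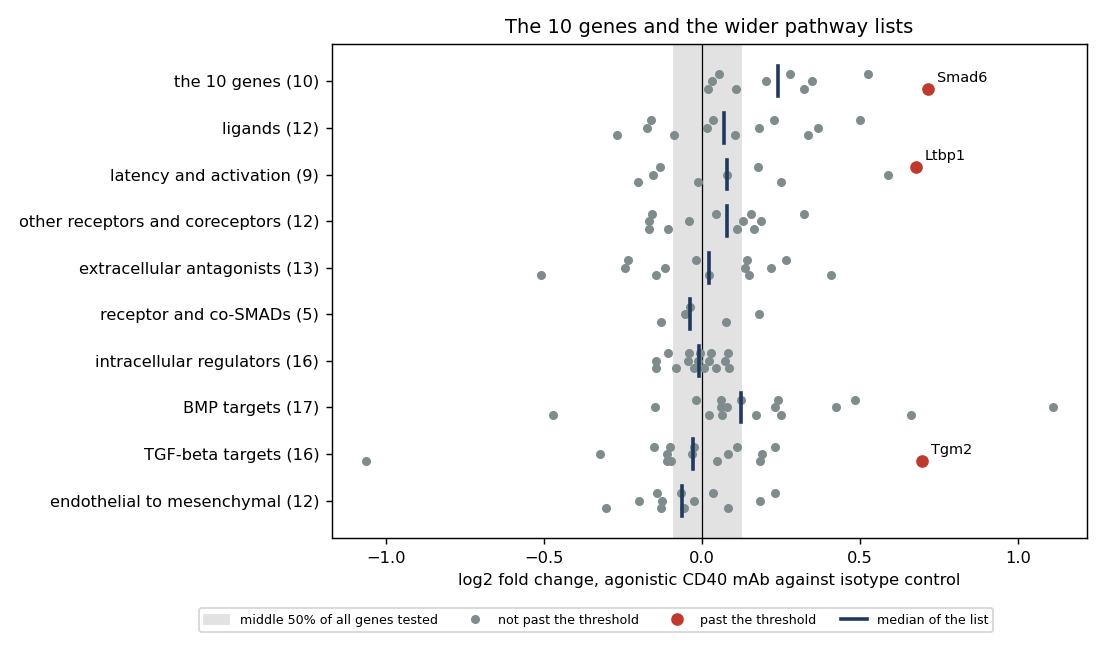
Log2 fold change of the 10 genes and of the tested genes of the 9 wider lists, 1 point per gene, with the median of each list (dark blue bar) and the middle 50% of all genes tested (gray). Smad6, Ltbp1 and Tgm2 (red) passed the threshold, and the median was 0.24 for the 10 genes and between -0.06 and 0.12 for the wider lists.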

How the data were processed

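RNA of CD45-CD31+ cells of 8 mice was sequenced (TruSeq v2, without strand). Alignment by the authors was to mm10 with TopHat2, which uses Bowtie2 (2.2.1 in the submitters' processing notes, with CASAVA 1.8), assigned them to genes in Partek (6.6) and normalized with DESeq2. The deposited values are a signal, normalized reads per gene and library. Of these, 99.9% lay within 0.1 of a whole number of reads, so reads could be recovered (1 read was worth 0.118 to 2.44), and the flooring, trimming and harvest day correction of the methods were not visible.

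Log2(value + 1) was tested with limma 3.58.1 (R 4.3.3, variance trend, treatment as the only term) in 12969 genes with a larger group mean above 10, and p was adjusted by Benjamini-Hochberg over them. Ratios are of group means. The added 1 can shrink fold changes of low genes. Fold changes on this scale compare means of logarithms, so that they can also exceed the ratio of means (Msx1, log2 fold change 1.11 with a ratio of 1.42). Exact permutation tests were two-sided (SciPy 1.17.1, pandas 2.3.3, Python 3.11.15). The scripts were tested on simulated data. edgeR 4.0.16 and DESeq2 1.42.0 ran on recovered reads. Mice were separate animals, as given by the labels. Positions and exon lengths are from GENCODE M21, matched by symbol for 19324 of 20057 genes, and promoters from RefSeq (GRCm38.p6) for 7 of the 10 genes, searched on both strands. Named were the 10 genes, genes of each wider list past the threshold or with the 2 largest means or lowest p, and the 3 genes most like each of the 10. Some genes within this rule are not reported here. Other genes were named for their role or after their values had been seen (Hey1, Hey2, Msx1, Acta2, Tagln, Ctgf, Gdf2, Bmp10, Smad4, Junb, some marker genes and those lower without 5L). The genes, lists and motifs were chosen with earlier results of these data known. Other settings were pseudocounts of 0.1 and 10, other limits, normalizations and models, and each library left out. Quality weights, reads drawn down (a single random draw) and scaling to endothelial markers were added after seeing the data.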

Additional observations from a re-analysis of the deposited data

Results flagged for a closer look

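Among 102 groups of 4 libraries checked for a library far from the others (the 10 genes, 7 ratios between them and 34 genes of the wider lists, in each group), 3 were found, while chance gives about 1 in 20. The measure is the gap to the nearest library over the whole range of the group, and Dixon's critical value at 95% was used.

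Eng in 6L was at 9916 normalized reads against 7596 in the next highest agonistic CD40 mAb library, a gap of 0.979 of the range. Id1 in 5N was at 221 against 317 in the next lowest, a gap of 0.909. The log2 ratio of Eng to Acvrl1 in 10N was 2.39 against 2.65, a gap of 0.859. All 3 were in the agonistic CD40 mAb group, and the reasons were not tested.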

How the results depend on the processing

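With all 8 libraries 166 genes passed as higher and 31 as lower, and 2 had an adjusted p under 0.05. The count of higher genes rose to 331 when all genes were tested and was 124 to 234 with each library left out. The count of lower genes was 93 with all genes, 13 with means above 50, 63 with quantile normalization, 57 without the trend, 47 in edgeR, 58 in DESeq2, 70 with quality weights, 53 with endothelial scaling, and 27 to 123 with libraries left out. Genes with an adjusted p under 0.05 numbered 1 with a pseudocount of 0.1, with all genes, with means above 50, without the trend and with robust moderation, 4 with a pseudocount of 10, 64 in DESeq2, 17 with quality weights, 29 with endothelial scaling, and 1 to 19 with libraries left out.

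Of the 10 genes, 1 passed as higher in 17 of 21 settings, 0 with endothelial scaling, and 0 to 2 with libraries left out. In the wider lists, 0 to 4 passed as higher and 0 to 7 as lower with libraries left out, and edgeR, like DESeq2, gave 1 lower (Ankrd1). There, quality weights gave 1 higher (Tgm2) and 1 lower (Ankrd1) with 38 of 109 above 0, and endothelial scaling 0 higher and 2 lower (Ankrd1 and Mgp) with 29 above 0, against 59 with all libraries as deposited. Over all genes tested, 1.35% passed as higher and 0.54% as lower with quality weights, and 0.948% and 0.409% with endothelial scaling. Endothelial scaling also moved the median log2 fold change of all genes tested to -0.16. The log2 fold change turned for Tgfb1 (-0.022 with quality weights, -0.11 with endothelial scaling, -0.10 to 0.25 with libraries left out), Eng (-0.022 with quality weights), Bmpr2 (-0.13 with endothelial scaling, -0.058 to 0.18), Tgfbr1 (-0.055 with endothelial scaling) and Tgfbr2 (-0.22 with quality weights, -0.14 with endothelial scaling, -0.11 to 0.12). Those of Acvrl1, Smad6, Smad7, Id1 and Id3 stayed above 0 in all 21 settings. The median of the 10 was between 0.08 and 0.34. The causes were not tested. No paired analysis was possible because the groups hold different mice, the replicate numbers here only follow the order of the samples, and the labels name no litter, batch or harvest day that pairs them, so that the harvest day term of the study's methods was not modeled. Of the 10 genes, depth limits Smad6 most, with 271 reads over the 4 controls.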
